A study of Homo sapiens with 6 samples.

Results

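The 9 genes SLBP, NPAT, CASP8AP2, LSM10, LSM11, ZNF473, ERI1, CPSF3 and SYMPK encode factors that transcribe or process the mRNAs of replication-dependent histones. Their probe sets were found by symbol, from the platform annotation and the transcript accessions of the deposited table, older names included. The genes themselves were chosen with earlier results of these data known. Each of the 9 was represented by 1 probe set, so all 9 were measured, among 18395 genes with a symbol of their own on the array. The arrays compared HEK293T cells, an established line from human embryonic kidney with the large T antigen of SV40, 24 hours after transfection with pNTAP-2×flag-VRTN or with the pNTAP-2×flag empty vector. The VRTN plasmid carried the coding sequence of pig VRTN (vertnin), a DNA-binding protein associated with vertebral number in pigs, so the protein made was a tagged pig protein in a human line. Each plasmid had 3 arrays, called biological replicates in the labels, from 1 cell line, and p-values measure the spread between these 6 arrays. The labels do not say how many of the cells took up the plasmid, and each array reads the RNA of all cells together, so fewer cells with a change and a smaller change in each cell cannot be told apart.

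Histone mRNAs of the replication-dependent kind end in a stem-loop in place of a poly(A) tail. In S phase NPAT, activated by cyclin E and CDK2, switches on the histone genes in nuclear foci called histone locus bodies. The U7 snRNP, a small RNA carried in a protein ring, then pairs with the nascent transcript, SLBP binds the stem-loop, and a cleavage complex cuts the RNA behind it. The comparison asked whether cells given VRTN differed from vector cells in the mRNA of these factors, from transcription to trimming of the finished end. Neither the proteins nor their activity was measured.

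The signals are log2 values from RMA, an array method that corrects background, equalises the arrays and combines the probes of a transcript. The median log2 signal of the 29183 probe sets tested was 6.43 to 6.47 in the 6 arrays, as RMA makes it, so it does not show whether an array stands apart. The negative control median, the middle value of an array's negative control probe sets, was 5.59, 5.90 and 6.06 in the VRTN arrays and 5.36, 5.92 and 6.13 in the vector arrays, lowest in replicate 1 of both groups, and its part in the differences below was not tested. The number of arrays limits the precision. VRTN itself, read by the probe set for the human gene, was at 6.25, 6.22 and 6.07 in the VRTN arrays and 5.19, 4.98 and 5.14 in the vector arrays (limma adjusted p = 0.0194). The groups did not overlap, and the log2 fold change of 1.08 stayed at 0.99 to 1.15 whichever array or replicate number was left out. The call itself held only in part: the adjusted p was 0.554 without variance moderation, and 0.131, 0.264 and 0.0527 without VRTN replicates 1, 2 and 3. It was 0.189 and 0.154 without vector replicates 2 and 3, and 0.114 to 1.0 without both arrays of a replicate number. The probe set is among the dimmest 40% and drops out when these are removed. How well the human probes read the pig sequence was not measured. Of 4 genes noted in HEK293 cells, LIN28B and PAX2 exceeded that median in all 6 arrays, NEFM in 1 and INA in 3. Of 8 markers of blood, endothelium, fibroblasts and liver, COL1A2 lay above that median in all 6 arrays, CDH5 in 1, and the other markers, PTPRC, LYZ, CD3E, PECAM1, LUM and ALB, in 0.

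None of the 9 genes passed the test for a change with VRTN. The log2 fold changes ran from -0.13 for CASP8AP2 to 0.17 for ZNF473, with a median of -0.025 against -0.0049 over all probe sets. In limma with Benjamini-Hochberg adjustment over all probe sets, 0 of 9 passed an adjusted p of 0.05 (adjusted p 0.969 to 0.997), where 0.0137% of all probe sets, that is 4, passed. At an unadjusted p under 0.05 there were also 0 of 9, where 5.58% of all probe sets lay. The groups overlapped for every one of the 9, while they did not overlap for 11.3% of all probe sets. A p that misses the threshold does not show equal levels, and each gene's interval shows which differences the fit could not resolve. Over the 9 genes, the 95% limma intervals of the VRTN to vector ratio reached no lower than 0.762 and no higher than 1.45. These are separate intervals that rest on variance moderation. ZNF473 and CASP8AP2 set these limits, and without moderation their SE was 0.20 and 0.13, against 0.16 and 0.11 with it. Other genes had a smaller SE without moderation, such as SLBP (0.052 against 0.071). For SLBP, NPAT, CPSF3 and SYMPK the interval stayed between 0.865 and 1.15.

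**Figure D1:**
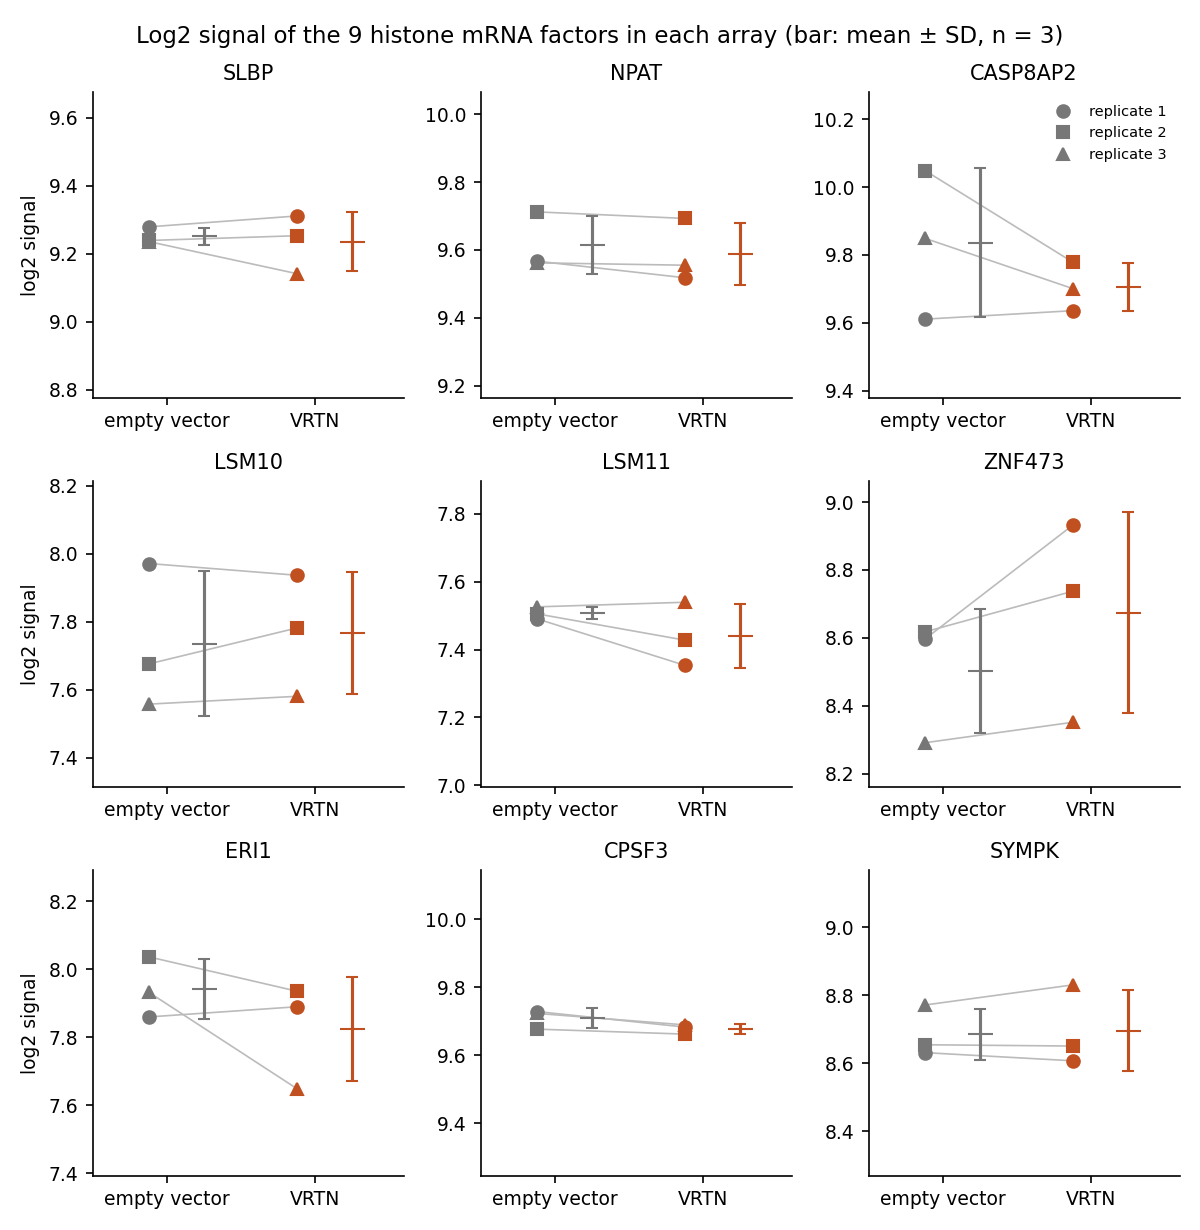
Log2 signal of each of the 9 genes (vertical axis, the same span of 0.9 in every panel) in the vector (grey) and VRTN (orange) arrays; the symbol gives the replicate number, grey lines join same-numbered arrays, and bars are mean ± SD, n = 3. The groups overlap in every panel, and LSM10 and ZNF473 are spread over the replicate numbers in both groups.

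The 9 genes were read above the middle of the background. In all 6 arrays each exceeded the middle value of that array's 2904 negative control probe sets, and at least 73.7% of them (LSM11, in its lowest case). The 95th percentile of these controls was 10.53 to 11.12, above the highest value of any of the 9 genes (10.05, for CASP8AP2), so the negative controls spread widely and give no detection limit. Levels of different probe sets are not set against each other here, since probes differ in brightness.

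The first step is transcription in the histone locus body. NPAT, the coactivator that marks these bodies, was at 9.52, 9.69 and 9.55 in the VRTN arrays and 9.57, 9.71 and 9.56 in the vector arrays. Replicate 2 was the highest in both groups, and the plasmids differed less than the replicate numbers did. In limma the difference was -0.025 in log2 units (SE 0.080, n = 3 per group; 95% interval from -0.21 to 0.16), at an adjusted p of 0.997. CASP8AP2, also called FLASH, is a large protein of the same bodies that holds the cleavage factors to the U7 snRNP. It was at 9.64, 9.78 and 9.70 with VRTN and at 9.61, 10.05 and 9.85 with the vector. The vector arrays of replicates 2 and 3 were above all VRTN arrays, and the vector array of replicate 1 was the lowest of the 6. The difference of -0.13 (SE 0.11; 95% interval from -0.39 to 0.13; limma adjusted p = 0.969) was the most negative of the 9. Without the vector array of replicate 1 it was -0.24, at an unadjusted limma p of 0.0331 and an adjusted p of 0.713. Without the vector array of replicate 2 it was -0.025, at an unadjusted limma p of 0.812.

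NPAT stands head to head with ATM, the gene of a DNA damage kinase, and both are transcribed away from a shared stretch of DNA. In the RefSeq promoter table (build GRCh38.p14) their start sites lie 429 bases apart on chromosome 11, for the first of the 2 ATM start sites listed. The 250 bases before each start are shown because the windows overlap by 72 bases, so these sequences belong to both genes. Capitals mark CCAAT boxes, read on both strands.
NPAT, chr11:108222639-108222888, minus strand: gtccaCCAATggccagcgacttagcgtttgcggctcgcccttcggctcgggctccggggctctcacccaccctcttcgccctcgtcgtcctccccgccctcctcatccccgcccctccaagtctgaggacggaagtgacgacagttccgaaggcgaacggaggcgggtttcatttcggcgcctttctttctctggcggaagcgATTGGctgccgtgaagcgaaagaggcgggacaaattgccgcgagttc
ATM, chr11:108222817-108223066, plus strand: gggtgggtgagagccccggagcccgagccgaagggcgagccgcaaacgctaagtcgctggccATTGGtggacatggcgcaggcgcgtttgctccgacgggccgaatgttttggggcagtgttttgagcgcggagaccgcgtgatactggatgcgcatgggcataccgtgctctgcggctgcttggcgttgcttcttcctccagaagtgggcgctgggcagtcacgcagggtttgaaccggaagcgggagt
The box at -245 from the NPAT start and the one at -188 from the ATM start are the same bases read from opposite strands, and NPAT has another at -47.

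ATM was at 8.41, 8.82 and 8.94 with VRTN and at 8.33, 8.82 and 8.94 with the vector. Its same-numbered arrays were close, and replicate 1 was the lowest in both groups. Its log2 difference was 0.027 (SE 0.19, adjusted p = 0.997 in limma). The means of same-numbered arrays spanned 0.16 for NPAT, with replicate 2 highest, and for ATM replicate 3 was highest, so the neighbours had neither a plasmid difference past the test nor the same order over the replicate numbers.

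**Figure D2:**
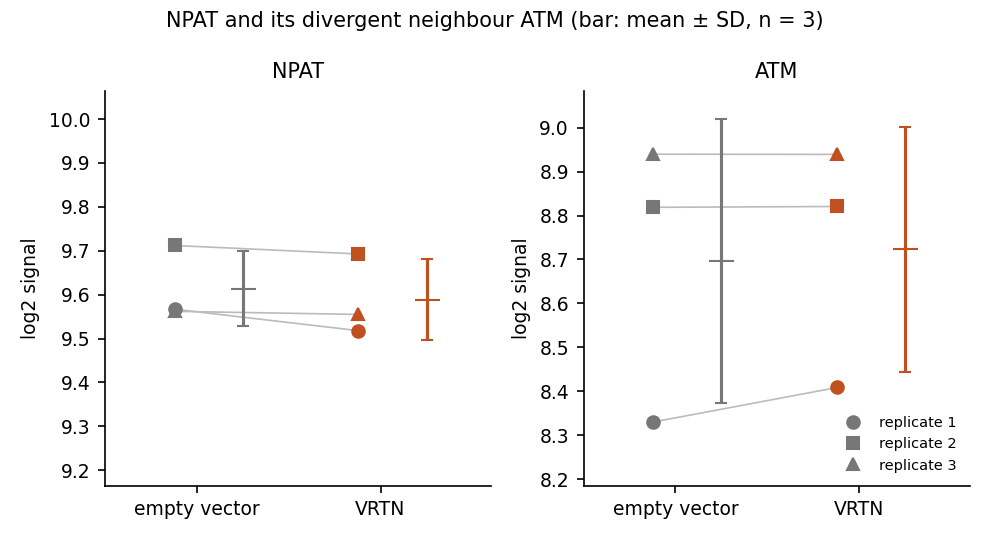
Log2 signal (vertical axis, the same span of 0.9 in both panels) of NPAT and ATM in the vector (grey) and VRTN (orange) arrays; symbols give the replicate number, grey lines join same-numbered arrays, and bars are mean ± SD, n = 3. Same-numbered arrays sit nearly level in both panels, and the number that is highest differs between the genes.

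The U7 snRNP carries a ring in which LSM10 and LSM11 take the places of the spliceosomal proteins SmD1 and SmD2. LSM10 was at 7.94, 7.78 and 7.58 with VRTN and at 7.97, 7.68 and 7.56 with the vector. Replicate 1 was the highest and replicate 3 the lowest in both groups, and the means of same-numbered arrays spanned 0.39, against a plasmid difference of 0.031 (SE 0.13, n = 3 per group; limma adjusted p = 0.997). LSM11, which also contacts CASP8AP2 to recruit the cleavage factors, was at 7.35, 7.43 and 7.54 with VRTN and at 7.49, 7.51 and 7.53 with the vector. The vector arrays lay close together, inside the range of the VRTN arrays, of which those of replicates 1 and 2 were below and that of replicate 3 above them. Its plasmid difference was -0.067 (SE 0.072; 95% interval from -0.23 to 0.10), at a limma adjusted p of 0.978, and it was -0.024 without VRTN replicate 1 and -0.12 without VRTN replicate 3.

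SLBP binds the stem-loop and stays with the mRNA through export and translation. It was at 9.31, 9.25 and 9.14 with VRTN and at 9.28, 9.24 and 9.24 with the vector. The VRTN array of replicate 3 was the lowest of the 6 and that of replicate 1 the highest, so the vector values lay within the VRTN range. On the log2 scale VRTN and vector differed by -0.016 (SE 0.071; 95% interval from -0.18 to 0.15), at a limma adjusted p of 0.997, and the sign turned to 0.015 after a second quantile normalization. ZNF473, also called ZFP100, is a zinc finger protein that bridges SLBP and the U7 snRNP. It was at 8.93, 8.74 and 8.35 with VRTN and at 8.60, 8.62 and 8.29 with the vector. The VRTN arrays of replicates 1 and 2 were the highest of the 6, and replicate 3 was the lowest in both groups. Its difference of 0.17 (SE 0.16; 95% interval from -0.19 to 0.53; limma adjusted p = 0.970) was the highest of the 9, and so was the span of 0.44 between the means of same-numbered arrays.

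Within same-numbered pairs ZNF473 was higher with VRTN by 0.34, 0.12 and 0.060. The labels do not say what a replicate number marks, so the pairs are a reading of the numbers. With the replicate number as a block its unadjusted limma p was 0.0569 and its adjusted p 0.448. Without the VRTN array of replicate 3 the log2 fold change was 0.33, at an unadjusted limma p of 0.0324 and an adjusted p of 0.829. Without the VRTN array of replicate 1 it was 0.043, at an unadjusted limma p of 0.782, and without the vector array of replicate 3 it was 0.067. Leaving out VRTN replicate 3, or the vector array of replicate 1 as for CASP8AP2, gave the only counts above 0 of members at an unadjusted p under 0.05, 1 of 9 each, among the alternatives tried. Of all 29183 probe sets, 1750 and 1983 lay there in these settings.

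The cut itself is made by CPSF3, the endonuclease known as CPSF73, held by the scaffold SYMPK (symplekin). Both also serve the cleavage of polyadenylated transcripts. CPSF3 was at 9.683, 9.662 and 9.689 with VRTN and at 9.729, 9.677 and 9.723 with the vector. It had the narrowest spread of the 9, with 0.067 between the lowest and the highest array, and the vector array of replicate 2 lay below VRTN replicates 1 and 3. The fitted difference of CPSF3 was -0.031 (SE 0.062; 95% interval from -0.17 to 0.11), at a limma adjusted p of 0.993. SYMPK was at 8.61, 8.65 and 8.83 with VRTN and at 8.63, 8.65 and 8.77 with the vector. Replicate 3 was the highest in both groups. That of SYMPK was 0.011 (SE 0.084; 95% interval from -0.18 to 0.20), at a limma adjusted p of 0.997, with a sign that turned to -0.0080 with array weights.

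ERI1 is an exonuclease that trims the end left by the cut and later takes part in histone mRNA decay. It was at 7.89, 7.94 and 7.65 with VRTN and at 7.86, 8.04 and 7.93 with the vector. The VRTN array of replicate 3 was the lowest of the 6, 0.28 below its vector partner, and the other pairs differed by 0.030 and -0.10. The fitted difference was -0.12 (SE 0.095; 95% interval from -0.34 to 0.10), at a limma adjusted p of 0.969, and it was -0.030 without that array.

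**Figure D3:**
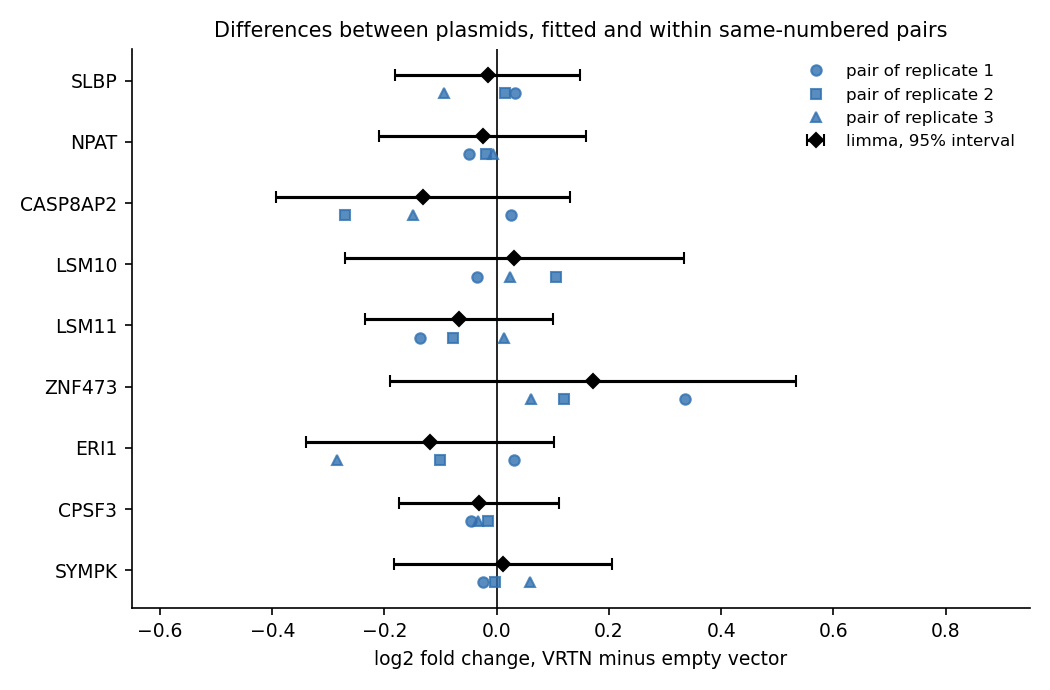
Log2 fold change of VRTN over the vector (horizontal axis) for each of the 9 genes: black diamonds with bars are the limma estimate with its 95% interval, and blue symbols are the differences within same-numbered pairs. Every interval spans 0, and NPAT, ZNF473 and CPSF3 have their 3 pairs on 1 side of 0.

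The 3 pairs had the same sign for NPAT (-0.049, -0.019 and -0.0071), CPSF3 (-0.046, -0.015 and -0.034) and ZNF473, that is for 3 of 9 genes, beside 34.9% of all probe sets. Blocking on the replicate number left 0 of 9 at an unadjusted p under 0.05 (limma p 0.0569 to 0.858), while the share of all probe sets there went up to 11.5%. The span between the means of same-numbered arrays exceeded the plasmid difference for 9 of 9 genes and for 80.1% of all probe sets. It ran from 0.036 for CPSF3 to 0.44 for ZNF473, with a median of 0.18 against 0.16 over all probe sets. A span over 3 means and a difference of 2 are not the same kind of quantity, so this is a description of where the 9 genes varied.

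RefSeq promoter windows were at hand for 7 of the 9 genes, without ZNF473 and ERI1. In the 250 bases before the start, both strands read, the letters TTTNGCGC, a form of the site of the E2F factors that drive S phase genes, occurred in 2 of 7, CASP8AP2 and CPSF3, and in 1.51% of all 35116 windows. CCAAT occurred in 3 of 7 and 32% of all, and the GC box GGGCGG in 5 of 7 and 42.6%. The paired unit GAANNTTC of heat shock elements occurred in 0 of 7 and 5.78% of all. Both windows with the E2F letters are shown with these in capitals, since these letters were the rarest of the 4 motifs among all windows.
CASP8AP2, chr6:89829630-89829879, plus strand: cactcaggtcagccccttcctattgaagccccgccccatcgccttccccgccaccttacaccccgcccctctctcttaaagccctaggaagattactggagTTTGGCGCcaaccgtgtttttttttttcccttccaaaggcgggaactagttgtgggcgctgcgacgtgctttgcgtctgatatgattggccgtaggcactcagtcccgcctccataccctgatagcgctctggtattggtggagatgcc
CPSF3, chr2:9423404-9423653, plus strand: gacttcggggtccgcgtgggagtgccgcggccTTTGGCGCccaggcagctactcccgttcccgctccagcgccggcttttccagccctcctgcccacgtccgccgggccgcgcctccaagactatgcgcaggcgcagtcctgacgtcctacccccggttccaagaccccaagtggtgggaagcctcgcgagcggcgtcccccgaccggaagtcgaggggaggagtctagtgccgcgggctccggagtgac
The letters begin at -149 in CASP8AP2 and at -218 in CPSF3. A match in letters is not a bound site, and no factor was measured on this DNA.

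The factors that work beside the 9 genes were listed by role, with results of these data already known. In all 6 lists of such factors, 0 of 53 measured genes passed an adjusted p of 0.05 in limma. Below an unadjusted p of 0.05 lay 2 genes with a negative difference and 0 with a positive one, that is 3.77% lower, beside 2.92% of all probe sets lower and 5.58% in either direction, so the counts of these lists are near the background. Of 7 measured factors of histone transcription or the histone locus body, 0 were at an unadjusted p under 0.05, with a median log2 fold change of 0.019. This median turned to -0.024 without VRTN replicate 1 and to -0.0047 without vector replicate 3, and was 0.039 without VRTN replicate 3. The kinase CDK2 was at -0.059 (SE 0.063) and the second E-type cyclin CCNE2 at -0.019 (SE 0.20), and on the higher side CRAMP1 was at 0.044 and GON4L at 0.028. POU2F1 had no probe set annotated to it alone.

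All 7 measured genes of Sm proteins had a negative log2 fold change, with a median of -0.091, but 0 of 7 were at an unadjusted p under 0.05 in limma. SNRPF (-0.14, SE 0.088) and SNRPB (-0.12, SE 0.078), both in the spliceosomal and the U7 ring, had the smallest p. Over all probe sets 52% were negative. The Sm median was -0.14 without vector replicate 2. The Sm genes were further from 0 in the pairs of replicates 1 and 3 (medians -0.14 and -0.13) than in that of replicate 2 (-0.0052).

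The 17 other cleavage and polyadenylation genes split evenly, 9 negative, with a median of -0.0059 (-0.022 to 0.018 with arrays left out) and 0 at an unadjusted p under 0.05. The poly(A) polymerase PAPOLA was at 0.090 (SE 0.062) and RBBP6 at 0.13 (SE 0.11), against -0.076 for CPSF4 and -0.070 for SSU72. A second SSU72 probe set was at -0.15. INTS9 and INTS11, the Integrator subunits that resemble the cleavage factors CPSF2 and CPSF3, were at 0.036 and -0.0051.

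Histone mRNA decay factors were negative in 12 of 15 cases, with a median of -0.041 (-0.070 without VRTN replicate 1), and 1 lay lower at an unadjusted p under 0.05. LSM2, a subunit of the LSM1 to LSM7 ring that loads on the mRNA end, was this gene, at -0.25 (SE 0.094, n = 3 per group; limma adjusted p = 0.853). Its 3 probe sets gave the same value, so they count once. Without vector replicate 1, its highest array, LSM2 was at -0.15, at an unadjusted limma p of 0.0869, and leaving out any 1 VRTN array also put that p above 0.05 (0.0576 to 0.0761). The linear model without variance moderation gave LSM2 an unadjusted p of 0.0715. LSM6 of the same ring was at -0.18 (SE 0.084). With the replicate number as a block both LSM2 and LSM6 had an unadjusted limma p under 0.05 (0.0188 and 0.0276). Their adjusted p in that fit was 0.344 and 0.377, and 6.19% of all probe sets lay lower at an unadjusted p under 0.05 there. The decapping factor DCP1A (0.11) and the terminal uridyltransferase TUT4 (0.054) were on the higher side.

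Of 5 measured partners in cap binding, translation and SLBP turnover, 4 were negative. Their median was -0.14, beside -0.15 for the histone genes described below, and ran from -0.15 to -0.063 with arrays left out. At an unadjusted p under 0.05, 1 of the 5 lay lower. NCBP2, the small subunit of the nuclear cap-binding complex, was at -0.18 (SE 0.069, n = 3 per group; limma adjusted p = 0.853), and by nearly the same amount in each pair (-0.17, -0.18 and -0.19). Its unadjusted limma p was 0.0333, and 0.0602 to 0.118 without VRTN replicate 1 or 2 or vector replicate 1 or 3. After a second quantile normalization that p was 0.054. The large subunit NCBP1 was at -0.14 (SE 0.069; adjusted p = 0.908), and MIF4GD, which joins SLBP to translation initiation, at 0.027. For both cap-binding genes all 3 VRTN arrays lay below all 3 vector arrays, as 11.3% of all probe sets had groups that did not overlap in either direction. SRRT and NELFE had no probe set annotated to them alone.

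The substrates of this machinery, the replication-dependent histone genes, gave 0 calls at the adjusted threshold as well. Of 56 measured, 16 lay lower and 0 higher at an unadjusted p under 0.05, beside 853 lower (2.92%) and 774 higher over all 29183 probe sets, with a median of -0.15 against -0.025 for the 9 processing genes. With the replicate number as a block 28 lay lower and 0 higher, beside 1807 lower (6.19%) and 1550 higher over all. H3C10 (-0.52, SE 0.093) and H3C7 (-0.48, SE 0.088), which encode histone H3, had the smallest p, both at a limma adjusted p of 0.386. H2BC17 (0.13) and H2AC14 (0.084) had the smallest p on the higher side, and H2AC14 did not reach the negative control median in any of the 6 arrays. Other dim histone genes were not removed either. Without the dimmest 40% of probe sets the median of the histone genes was -0.19, and that of the 9 genes stayed at -0.025. Histone genes are near copies and can share probes, so their single values are uncertain. A pair of histone H4 genes gave identical values and was counted as separate genes, so the counts are not of independent measurements. The difference between both lists was not tested.

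**Figure D4:**
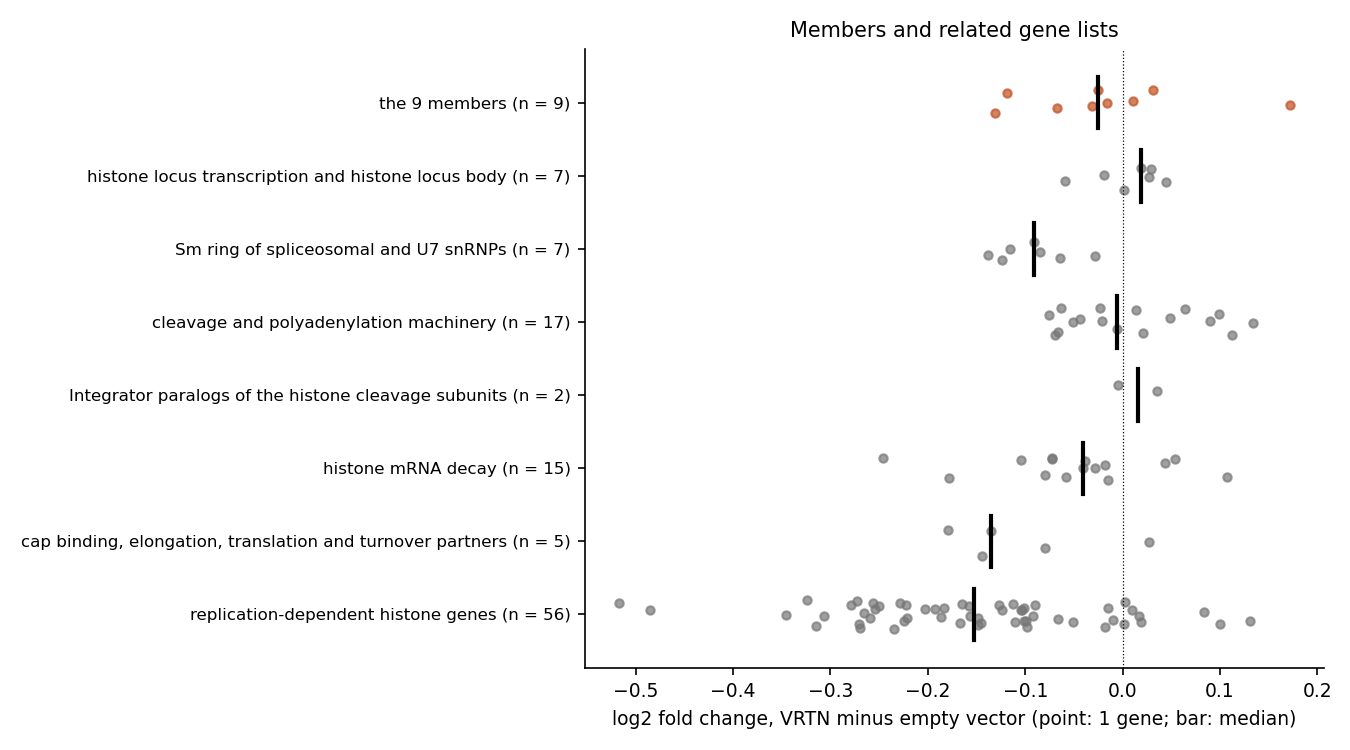
Log2 fold change of VRTN over the vector (horizontal axis) for single genes (points) of the 9 members (orange) and of 7 related lists (grey), with the median of each list as a black bar. The members span -0.13 to 0.17 around a median of -0.025, and the histone genes reach -0.52 around a median of -0.15.

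For each of the 9 genes, the 2 genes most like it were taken by Pearson's r of log2 values over the 6 arrays, among all genes with a probe set of their own. The highest were SH3KBP1 (0.997) and TRIM41 (0.997) for SLBP, RAB11FIP3 (0.999) and TSKS (0.973) for NPAT, and NET1 (0.998) and RANBP17 (0.992) for CASP8AP2. They were EHD3 (0.999) and TSFM (0.997) for LSM10, BBS4 (0.998) and PI4K2B (0.996) for LSM11, and SWSAP1 (0.999) and BRF2 (0.998) for ZNF473. For ERI1 they were ZNF417 (0.991) and OXNAD1 (0.989), for CPSF3 TMEM126A (0.989) and PPA1 (0.984), and for SYMPK ZFPM2 (0.997) and SIRT4 (0.993). With 6 arrays and 18395 genes on the array, values near 1 turn up for any pattern, and none of the genes named for 1 member was named for another. No gene of the related lists was among them.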

How the data were processed

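Per the file headers, the deposited log2 values came from gene-level RMA with default settings on Human Gene 1.0 ST arrays. The submitters' processing notes name Affymetrix Expression Console 1.0. The genome build of the array annotation is not given in the sources used here. A second deposited table held the same values (0 of 33297 probe sets differed by over 0.0001). RMA equalises the arrays and thereby hides a shift common to most transcripts.

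Here 4114 control probe sets were removed, and 29183 were fitted by limma 3.58.1 in R 4.3.3 (lmFit, eBayes, two-sided, Benjamini-Hochberg over all 29183, threshold 0.05), without a filter on dim probe sets. A gene was represented by the single-symbol probe set of highest average signal. Python 3.11.15 with pandas 2.3.3 and matplotlib 3.10.9 made the tables and plots. The fit was tested on simulated data in which the arrays were independent of each other. That test does not cover arrays of the same number that vary together. Promoters and their coordinates came from RefSeq (GRCh38.p14), and no other gene coordinates were used.

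Groups and replicate numbers came from the sample titles. Deviations from the group means correlated between arrays of 1 number (0.535, 0.157 and 0.499 over probe sets), and the numbers were read as pairs on that basis. The labels do not say what a number marks, so the pairing was inferred from these same data. Calls come from the fit without a block, and the fit with one is an alternative. The others were the second table, a second quantile normalization, centring on the median, array weights, dropping the dimmest 40 percent, a prior that is trended and robust, no variance moderation, averaged probe sets, and leaving out each array or each replicate number.

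The members, lists and tests were chosen with earlier results of these data known. Named genes were the 9 members, up to 2 per list and direction by smallest p, VRTN, ATM, and the 2 genes most like each member. CPSF2, SmD1 and SmD2 are named as background, and their genes are counted in the lists without values of their own.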

Additional observations from a re-analysis of the deposited data

Results flagged for a closer look

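The 9 bacterial hybridisation spike probe sets, controls outside the comparison, gave a higher mean log2 signal in the VRTN arrays than in the vector arrays, by 0.35 (10.60 ± 0.10 against 10.24 ± 0.19, SD, n = 3; two-sided exact permutation p = 0.1, which 3 against 3 cannot go below). Probe sets of 1 array are not independent. Their part in the differences of the histone genes, LSM2 and NCBP2 was not tested.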

How the results depend on the processing

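Under all 18 alternatives 0 of the 9 genes passed the adjusted threshold (smallest adjusted p 0.448, ZNF473 with the replicate block). The count of members at an unadjusted p under 0.05 was 0 to 1 when arrays were left out, and 0 in the other alternatives. In the settings with 1, 1750 and 1983 of all 29183 probe sets lay there. The count of probe sets called was 4, and 14 with array weights, 8 with the replicate block, 0 without variance moderation (1769 at an unadjusted p under 0.05) and 0 to 4 when arrays or replicate numbers were left out. The block changed no call of a member. The median of the members was 0.0058 after a second quantile normalization and -0.0080 with array weights, and -0.051 to -0.022 when arrays were left out. Signs turned for values near 0: after the second quantile normalization for SLBP (0.015), NPAT (0.0058), CCNE2 (0.0035) and INTS11 (0.015), and with array weights for NPAT (0.0013), SYMPK (-0.0080), GON4L (-0.051) and CCNE2 (0.050). With arrays left out the log2 fold change ran from -0.054 to 0.031 for SLBP, -0.077 to 0.024 for NPAT, -0.24 to -0.025 for CASP8AP2, 0.043 to 0.33 for ZNF473, -0.12 to -0.024 for LSM11, -0.19 to -0.030 for ERI1, -0.057 to 0.15 for LSM10, -0.057 to 0.055 for SYMPK, -0.059 to 0.12 for GON4L, -0.16 to 0.19 for CCNE2, -0.041 to 0.083 for INTS9, -0.032 to 0.022 for INTS11, -0.048 to 0.17 for TUT4, -0.021 to 0.075 for MIF4GD and -0.16 to 0.18 for ATM. With arrays left out, list medians ran from -0.024 to 0.039 for histone transcription, -0.14 to -0.064 for the Sm genes and -0.070 to -0.028 for decay. They ran from -0.15 to -0.063 for the list of cap-binding and other partners and from -0.19 to -0.12 for the histone genes. After the second quantile normalization the median was 0.043 for histone transcription and -0.062 for the Sm genes. The median of the cleavage and polyadenylation genes turned to 0.025 there and to 0.016 with array weights. The cause of these changes was not tested. With 3 arrays per group, differences inside the intervals given could not be resolved.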
